A study of Mus musculus with 16 samples.

Results

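Collagen chain genes were followed in bone marrow of mice that had received marrow lacking the beta-1 and beta-2 adrenergic receptors. The members are all genes whose array name is Col, a number, the letter a and a number, such as Col1a1 and Col6a4. The array carries 44 such genes among 34763 gene names, with 69 probes of 60 bases. Of these, 20 genes (22 probes) were bright enough to be tested, since their signal stood well above background in 6 or more of the 8 mice of 1 group or the other. The other 24 genes were not tested. The rule reads the gene names and no signal value.

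Total RNA of bone marrow from 16 mice was hybridised to 1-colour Agilent arrays, 1 array per mouse. The 8 KO chimeras were lethally irradiated C57BL/6J mice (950 rad) that received whole marrow of Adrb1tm1BkkAdrb2tm1Bkk/J donors in 1 retro-orbital injection, at a stated ratio of 1:4 of that strain to C57BL/6J. The 8 controls are labelled as control mice, also irradiated (950 rad) C57BL/6J, with no donor named. The ratio of 1:4 is recorded for all 16 mice, controls included, and it is not said whether C57BL/6J marrow was injected as well. The share of donor cells that lacked the receptors is therefore not known. The mice recovered for 2 to 3 months. The recipient C57BL/6J stroma and any surviving host blood cells stay in a chimera, both receptors are deleted in the donor strain and not by cell type, and loss of the receptors, the donors' genetic background and the grafting itself cannot be told apart here. Values are log2 of the scanner software's processed signal over the array's 75th percentile, so 0 is the brightness at that percentile. A difference is KO chimera minus control on that scale.

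Collagens are the structural proteins of connective tissue, built as trimers of chains that wind around each other through long stretches in which glycine recurs in a fixed rhythm. Fibrillar collagens form fibres, collagen IV forms the network of basement membranes, collagen VI forms beaded microfibrils near cell surfaces, and FACIT collagens (fibril-associated collagens with interrupted helices) sit on fibrils. In bone marrow they are made mainly by stromal cells, by cells of the bone surface and by vessel walls, with a contribution from megakaryocytes, while the blood cells that dominate the tissue make little of most of them. In bulk RNA, fewer cells of a type and less RNA per cell cannot be told apart.

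Both 60-base probes of Col6a4, the 2 kept probes of Col25a1 and the second probe of Col20a1 are shown here, 5′ to 3′ as the array files give them, because the probes of these genes are compared below. The positions are those of the files (build mm9). Capitals mark glycine codons (GGN) that recur at every 3rd codon for at least 3 repeats in a reading frame without a stop, the signature of the collagen helix. Of the 69 collagen probes, 6 hold such a run, and of the 5 shown only the first Col25a1 probe does. Whether a probe could also bind transcripts of other genes was not tested.
Col6a4 downstream probe (minus strand, chr9:105893016-105893075): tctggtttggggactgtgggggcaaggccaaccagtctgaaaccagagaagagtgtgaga
Col6a4 upstream probe (minus strand, chr9:105974495-105974554): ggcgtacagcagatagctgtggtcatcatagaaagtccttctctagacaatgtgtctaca
Col20a1 second probe (plus strand, chr2:180750502-180750561): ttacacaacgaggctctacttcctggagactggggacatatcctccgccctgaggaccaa
Col25a1 repeat probe (plus strand, chr3:130270497-130270556): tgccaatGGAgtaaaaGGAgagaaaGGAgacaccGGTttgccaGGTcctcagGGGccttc
Col25a1 other probe (plus strand, chr3:129885684-129885743): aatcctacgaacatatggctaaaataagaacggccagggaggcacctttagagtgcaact

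Among the 20 collagen genes tested, 4 were higher in KO chimeras (Col6a4, Col20a1, Col7a1 and Col9a2), 1 was lower (Col5a3), and 15 did not pass an adjusted p of 0.05 (limma with Benjamini-Hochberg adjustment over 23114 genes). Of all genes tested, 10.2% were higher and 12% lower, 22.3% together, so the 25% of collagen genes called is near the background. The values of the groups did not overlap for 3 collagen genes (Col6a4, Col20a1 and Col7a1), 15% of those tested, against 6.13% of all genes. Of these 3, Col6a4 was kept for testing through the KO arrays alone. The median difference was 0.10 over the 20 collagen genes and -0.02 over all genes tested. The main structural chains of marrow matrix were not among the genes called: Col1a1, Col1a2 and Col5a1 were measured on every array and did not pass, and Col3a1, Col4a1 and Col4a2 were too dim to be tested.

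**Figure D1:**
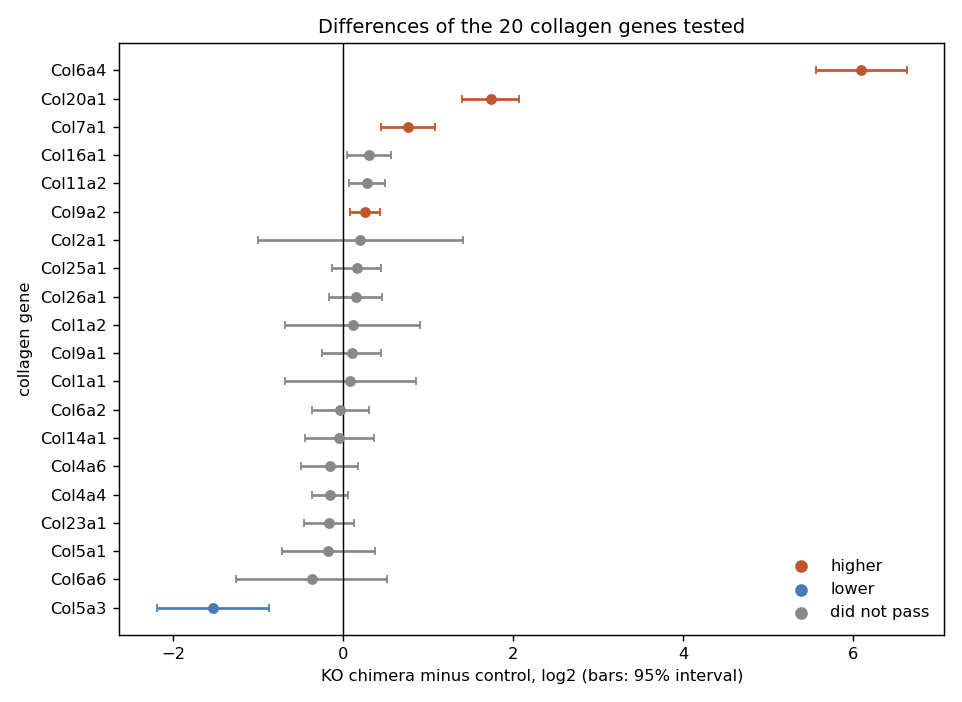
Difference between KO chimeras and controls (x axis, log2) for each of the 20 collagen genes tested (y axis, ordered by difference). Bars are 95% intervals of 1 gene at a time, so those of Col11a2 and Col16a1 leave out 0 although neither gene passed after adjustment. Col6a4 stands at 6.10, and the 15 grey genes lie between -0.37 and 0.30.

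Array brightness, the 75th percentile, lay between 127 and 545 for KO chimeras and between 231 and 558 for controls (p = 0.30, two-sided exact permutation test, n = 8 per group). The probes well above background numbered 27755 to 37087 and 29292 to 38743 (exact permutation p = 0.069). Dim probes nevertheless carried a shift. Over the 11637 probes that were above background on no array the median difference was 0.44, and over the 24 collagen probes among them it was 0.47. Untested collagen probes are therefore given by the number of arrays above background, and a difference of that size on such a probe is the level shared by unlit probes. All 8 markers of blood-forming marrow (such as Mpo and Cd79a) were tested on their brightest kept probes and none passed. Other kept probes differed by 1.08 (Mpo), 0.27 and 0.85 (Csf1r) and -0.42 (Cd79a), against 0.22, 0.22 and -0.59 on the brightest. On the brightest probes the summed signal over the 75th percentile ranged from 1712 to 2074 in controls and from 1664 to 2216 in KO chimeras. Such a sum weighs its brightest markers most.

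Collagen VI held the largest difference among the collagens tested. Col6a4 encodes a long chain of collagen VI that can take the place of the alpha 3 chain, and in humans the matching gene is a broken pseudogene. Its downstream probe was above background on 0 of 8 control arrays and on 8 of 8 KO arrays. Control values ran from -7.60 through a median of -6.88 to -6.38, and KO values from -1.85 through -0.75 to -0.015, so the groups stood far apart and did not overlap. The means were -6.97 ± 0.39 (SD, n = 8) and -0.87 ± 0.67 (SD, n = 8), a difference of 6.10 ± 0.25 (SE; adjusted p = 2.2e-11, limma). The probe was kept for testing through the KO arrays alone, and the control values are all background, so that difference has no exact size. For the same reason the adjusted p-values given for this probe add no support beyond the counts of arrays above background. On this scale the signal was 17.8-fold higher in KO chimeras, taking for each control array the higher of its own value and the dimmest signal there that was above background. The dimmest signal above background need not be the brightest that goes undetected, so this is not a strict lower bound. The size also depends on how background is treated: the difference was 2.02 after normexp correction with an offset of 50 and quantile normalization, and 5.21 on the authors' values (adjusted p = 1.2e-08 and 2.0e-11, limma). The difference was 5.85 among mice scanned on the first day and 6.35 on the second, and between 5.55 and 6.89 within each of the 5 slides that held both groups.

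The upstream Col6a4 probe, 81.5 kb away, did not show this. It was above background on 0 of 8 control and 0 of 8 KO arrays, with values from -7.53 to -6.09 in controls and from -7.28 to -4.84 in KO chimeras. Its mean was 0.76 higher in KO chimeras, an untested difference in the range where unlit probes also shifted upward. The rise therefore rests on 1 probe of the gene. Signals of different probes cannot be set against each other, and which transcript each probe detects was not tested.

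The neighbouring genes Col6a5 and Col6a6 encode the other long chains of collagen VI and lie beside Col6a4. Col6a5 was above background on no control array with either of its probes, on no KO array with one and on 1 KO array (KO7) with the other. That second Col6a5 probe read -2.68 in KO7 and between -7.40 and -5.60 in the other 7 KO chimeras, and controls lay from -7.66 to -6.26. Col6a6 was above background on 7 control and 2 KO arrays, with values from -5.25 to -3.38 in controls and from -6.50 to -3.07 in KO chimeras. The Col6a6 ranges overlap, and the difference of -0.37 ± 0.42 (SE) did not pass (adjusted p = 0.58, limma; 95% interval from -1.27 to 0.52). Its sign was negative on the first scan day (-1.04) and positive on the second (0.29).

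Of the classical collagen VI chains, which assemble into the common form of the protein, Col6a2 was measured on all arrays and did not pass: controls ran from -3.70 to -2.74 and KO chimeras from -3.44 to -2.63, a difference of -0.04 ± 0.16 (SE; adjusted p = 0.90, limma; 95% interval from -0.37 to 0.30). Col6a1 was above background on 4 control and 3 KO arrays and was not tested. KO7 read -0.72 for Col6a1 while the other 7 KO chimeras lay between -5.32 and -3.66. Col6a3 was above background on 2 control and 0 KO arrays. KO7 thus held the highest value among KO chimeras for Col6a1, Col6a6 and 1 probe of Col6a5, a pattern noticed after the values were seen and not tested.

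**Figure D2:**
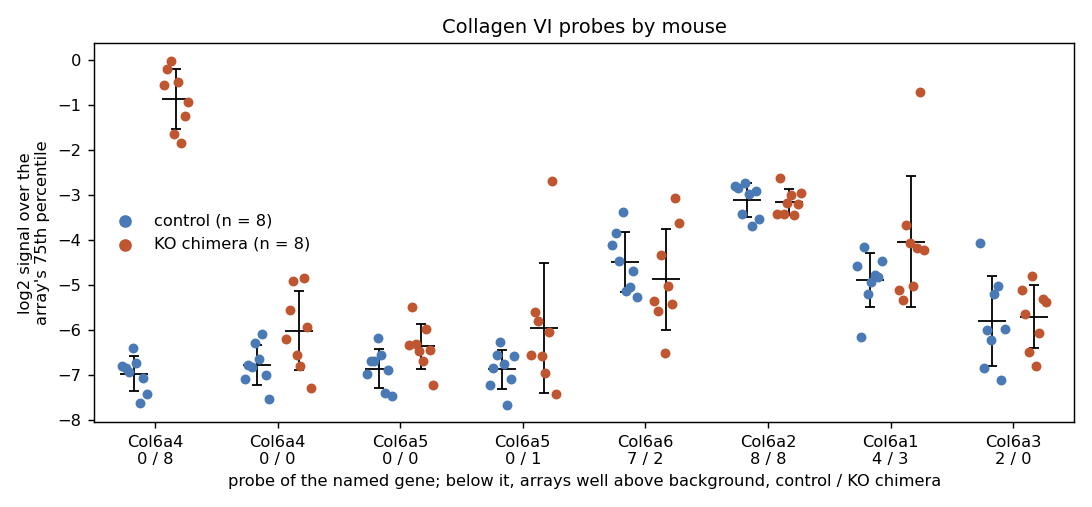
Signal of 8 collagen VI probes (x axis, with the number of arrays well above background, control / KO chimera, under each gene) on the log2 scale (y axis). Points are mice, bars mean and SD, n = 8 per group. Only the downstream Col6a4 probe separates the groups, with controls at -6.38 or lower and KO chimeras at -1.85 or higher, and the lone high points of Col6a1 and of the second Col6a5 probe are KO7.

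Among the FACIT collagens 5 genes were tested, 2 rose and 3 did not pass. Col20a1, a little-studied member of this class, rose on both of its probes. On the probe that was brighter over all arrays, which was the dimmer of the 2 in controls, values ran in controls from -3.24 through -2.74 to -2.47 and in KO chimeras from -1.80 through -1.09 to -0.54, with no overlap. The difference was 1.73 ± 0.16 (SE; adjusted p = 4.3e-07, limma), a 3.33-fold rise, and 0.99 after normexp and quantile normalization. On the second probe, whose sequence is shown above, controls ran from -2.90 through -2.51 to -2.44 and KO chimeras from -1.80 through -1.45 to -0.65, again with no overlap, and the difference was 1.18 ± 0.14 (SE; adjusted p = 1.2e-05, limma over 32689 probes, of which 11.4% were higher and 12.2% lower). The gene's main value is thus the larger of its 2 differences, and the mean of both probes differed by 1.46. Both probes were above background on all 16 arrays, and the first probe differed by 1.94 and 1.53 within the first and second scan days.

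Col9a2, a chain of the cartilage FACIT collagen IX, rose by a small amount. Controls ran from -2.68 through -2.35 to -2.19 and KO chimeras from -2.37 through -2.07 to -2.002, and 5 of 8 KO values lay above every control. The difference was 0.26 ± 0.08 (SE), a 1.19-fold rise, with an adjusted p of 0.032 (limma). The call did not hold when any 1 of C4, C7, KO1, KO2, KO3, KO5 or KO8 was left out (adjusted p up to 0.063), and it was lost within each scan day (adjusted p = 0.30 and 0.16) and under 3 other settings. The partner chain Col9a1 differed by 0.10 ± 0.17 (SE) and did not pass, and Col9a3 was above background on no array. Col16a1 differed by 0.30 ± 0.12 (SE; adjusted p = 0.094, limma), with all 8 KO values above the control median, and Col14a1 by -0.05 ± 0.19 (SE). Col12a1, Col19a1 and Col22a1 were not tested, Col22a1 being above background on 2 control and 4 KO arrays.

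Col7a1 encodes the collagen of anchoring fibrils, which tie epithelial basement membranes to the tissue beneath. Controls ran from -1.77 through -1.35 to -1.18 and KO chimeras from -1.14 through -0.63 to -0.13. The groups did not overlap, although the lowest KO value lay close to the highest control value. The difference was 0.76 ± 0.15 (SE; adjusted p = 0.0015, limma), a 1.69-fold rise. It was 0.73 on the first scan day, where it did not pass with 4 mice a group (adjusted p = 0.11), and 0.78 on the second (adjusted p = 0.016). The other members of the anchoring and short-chain network class, Col8a1, Col8a2 and Col10a1, were not tested, and of these only Col8a2 was above background on any array (5 control, 2 KO).

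**Figure D3:**
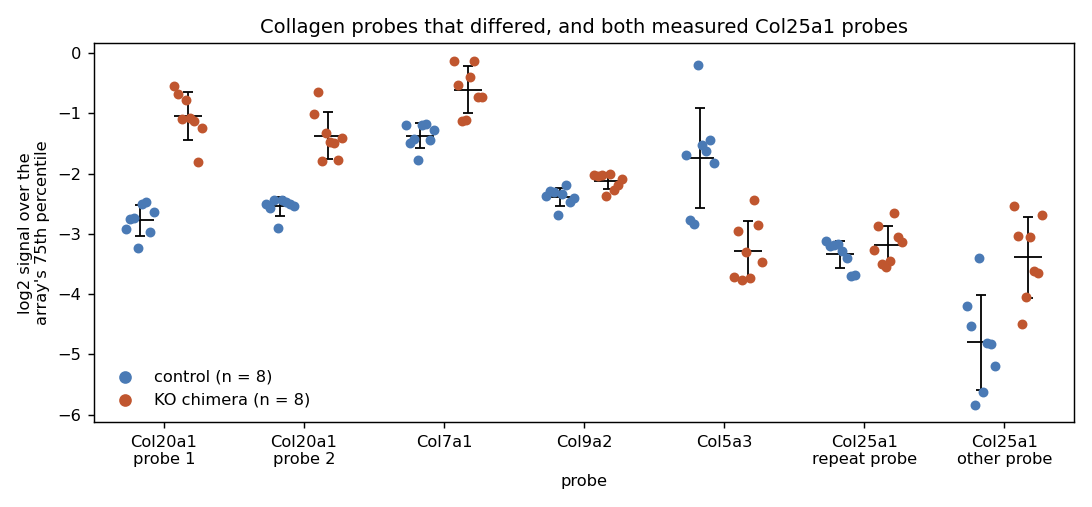
Signal of the probes of Col20a1 (probe 1 is brighter over all arrays), Col7a1, Col9a2 and Col5a3 and of the 2 measured probes of Col25a1 (x axis) on the log2 scale (y axis). Points are mice, bars mean and SD, n = 8 per group. Both Col20a1 probes and Col7a1 separate the groups, Col9a2 and Col5a3 overlap, and the 2 Col25a1 probes differ by 0.16 and 1.41.

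Of the fibrillar collagens, 6 of 11 genes were tested, of which 1 fell, 0 rose and 5 did not pass. Col5a3 encodes the alpha 3 chain of collagen V, a minor fibre collagen that helps to set fibril width. Controls ran from -2.83 through -1.67 to -0.20 and KO chimeras from -3.77 through -3.38 to -2.45, and 7 of 8 KO values lay below every control. Col5a3 fell by 1.54 ± 0.31 on the log2 scale (SE; adjusted p = 0.0018, limma), which is 2.90-fold lower. After normexp and quantile normalization it fell by 0.79 (adjusted p = 0.0013, limma). The difference was -1.61 on the first scan day (adjusted p = 0.095, with 4 mice a group) and -1.46 on the second (adjusted p = 0.016), and it was negative within all 5 slides that held both groups. Control mice varied more (SD 0.83) than KO chimeras (SD 0.49). The highest control, C4, read -0.20, and the lowest controls, C2 and C3, read -2.78 and -2.83, near the KO chimera KO7 at -2.85.

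Its partner chain Col5a1 did not pass. Controls ran from 0.10 through 0.92 to 1.16 and KO chimeras from -0.84 through 0.67 to 1.22, which overlap, and the difference was -0.18 ± 0.26 (SE; adjusted p = 0.68, limma; 95% interval from -0.72 to 0.37). Col5a2 was above background on no array. Whether Col5a3 and Col5a1 differed from each other in their response was not tested.

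The type I chains, the bulk of bone matrix, were measured on all 16 arrays. Col1a1 ran from -0.38 through 1.73 to 2.23 in controls and from 0.86 through 1.38 to 2.56 in KO chimeras, a difference of 0.08 ± 0.37 (SE; adjusted p = 0.91, limma; 95% interval from -0.69 to 0.86). Col1a2 ran from -0.38 through 1.58 to 2.33 and from 0.73 through 1.18 to 2.37, a difference of 0.11 ± 0.38 (SE; adjusted p = 0.88, limma; 95% interval from -0.68 to 0.90). The ranges overlap for both chains. A pair of control mice, C2 and C8, stood low for both chains: Col1a1 read -0.03 and -0.38 there and at least 1.56 in the other 6 controls, and Col1a2 read -0.21 and -0.38 against at least 1.24. Without C2 the Col1a1 difference was -0.12, and without C8 it was -0.17.

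The chains moved together from mouse to mouse. Across the 8 controls Col1a1 and Col1a2 correlated with Pearson's r = 0.95 (exact permutation of pairings, two-sided, p = 0.014, adjusted p = 0.028 over 2 relations) and Spearman's rho = 0.79 (exact permutation p = 0.028). Across the 8 KO chimeras Pearson's r was 0.81 (exact permutation p = 0.031, adjusted p = 0.031) and Spearman's rho 0.57 (exact permutation p = 0.15). Without the 2 mice farthest from the median Col1a1 value, C2 and C8, r among controls was 0.39, and without KO3 and KO6 r among KO chimeras was 0.24, so both relations rest on those mice. The other 5 chain pairs could not be examined because at least 1 chain of each was too dim.

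Some osteoblast markers were also low in C2 and C8, and others were not. Bglap (osteocalcin) read -3.89 in C2 and -3.12 in C8, below the -2.53 of the next control, and Sp7 (osterix) read -5.21 and -4.84 against -3.91. Ibsp (bone sialoprotein) read -3.84 and -3.89, though C5 was lower still at -4.14, and Alpl (alkaline phosphatase) read -3.19 and -2.94, within the range of the other controls from -3.73 to -2.56. Col2a1, the fibrillar collagen of cartilage, read -6.79 in C2 and -5.54 in C8 against at least -4.26 in the other controls, and its difference between groups, 0.20 ± 0.57 (SE; adjusted p = 0.85, limma), did not pass. None of the 7 osteoblast markers tested passed between groups, with a median difference of 0.27, and the 2 with the smallest p were Ibsp at 0.61 ± 0.27 (SE; adjusted p = 0.12, limma) and Mepe at -0.22 ± 0.11 (SE; adjusted p = 0.17, limma). The summed signal of all 10 osteoblast markers, tested or not, over the 75th percentile ranged from 0.95 to 3.56 in controls and from 1.70 to 3.50 in KO chimeras. Dmp1 and Phex were above background on no array. The part of bone-lining cells in the collagen values was not tested.

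**Figure D4:**
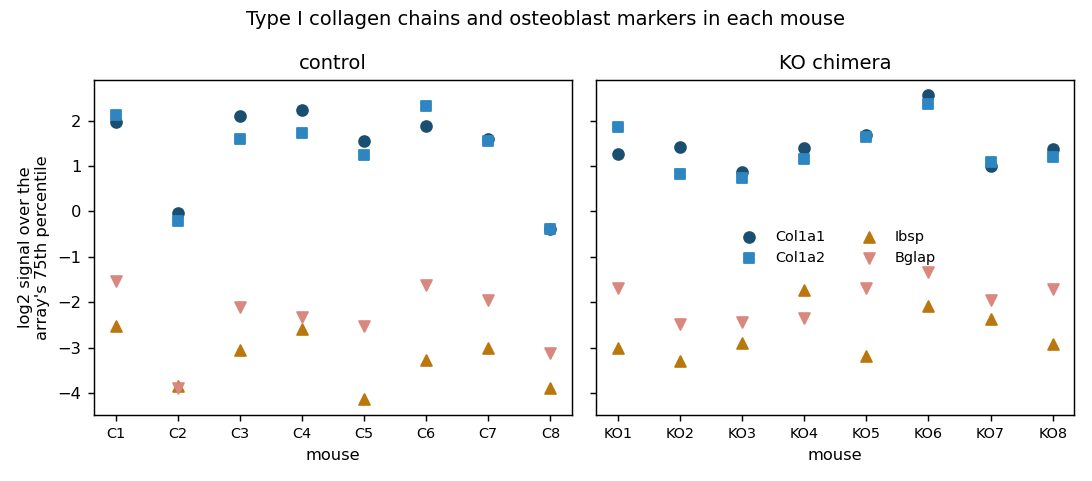
Signal (y axis, log2) of Col1a1, Col1a2 and the osteoblast markers Ibsp and Bglap in each control (left) and KO chimera (right) along the x axis, 1 point per mouse and gene. C2 and C8 are low for both type I chains and for Bglap, and KO6 holds the highest Col1a1 value at 2.56.

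Col3a1, the reticular fibre collagen, was above background on 5 control and 5 KO arrays and was not tested. Its values ran from -6.14 through -4.74 to -4.05 in controls and from -5.01 through -4.16 to -3.63 in KO chimeras. Col11a2 differed by 0.28 ± 0.10 (SE; adjusted p = 0.058, limma), with 6 of 8 KO values above every control, and did not pass. Col11a1, Col24a1 and Col27a1 were above background on at most 1 array.

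Basement membrane collagen IV gave no call. Of its 6 genes, Col4a4 differed by -0.16 ± 0.10 (SE; adjusted p = 0.30, limma) and Col4a6 by -0.16 ± 0.15 (SE; adjusted p = 0.52, limma), the second over 7 controls and 5 KO chimeras since 4 spots marked as outliers were left out. With those spots kept, the Col4a6 difference turned to 0.59 (adjusted p = 0.63, limma). The chains of the common network were dim: Col4a1 was above background on 0 arrays of either group, and Col4a2 on 5 control and 3 KO arrays. The multiplexins Col15a1 and Col18a1, which also lie in basement membranes, were above background on at most 3 arrays of a group and were not tested.

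The transmembrane collagen Col25a1, known from amyloid plaques in brain, gave different answers by probe. The brighter probe, which lies in a run of 6 glycine repeats, ran from -3.69 through -3.25 to -3.12 in controls and from -3.54 through -3.20 to -2.65 in KO chimeras, a difference of 0.16 ± 0.14 (SE; adjusted p = 0.45, limma) that did not pass. The other kept probe, which has no such repeat, ran from -5.84 through -4.82 to -3.39 in controls and from -4.49 through -3.33 to -2.54 in KO chimeras, overlapping, with a difference of 1.41 ± 0.34 (SE; adjusted p = 0.0056, limma over probes). It was above background on 4 control and 7 KO arrays, so it was kept through the KO arrays alone, and it was higher in KO chimeras within 4 of the 5 slides. With the mean of both probes Col25a1 joined the genes that were higher, and which probe follows the transcript was not tested. Col23a1 differed by -0.16 ± 0.14 (SE) and Col26a1 by 0.14 ± 0.15 (SE), and neither passed. The remaining collagens were dim: Col4a5 and Col19a1 were above background on 1 control and 1 KO array each, Col13a1 and Col28a1 on 1 control array each, and Col4a3, Col12a1 and Col17a1 on no array. In all, 10 of the 24 untested genes were above background on no array and 14 on some arrays, at most 5 of a group.

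Col6a4, Col7a1 and Col5a3 lie on chromosome 9, the first 2 of them 2.99 Mb apart and Col5a3 85.3 Mb from Col6a4 (probe positions, mm9), while Col9a2 lies on chromosome 4 and Col20a1 on chromosome 2. Around the Col6a4 probe, 37 other genes or named transcripts within 1 Mb were tested, of which 4 were higher, 4 lower and 29 did not pass. That is 21.6% called, against 21.1% of 133 genes at 1 to 5 Mb, 23.6% of 988 on the rest of the chromosome and 22.2% of 21741 on other chromosomes. Groups did not overlap for 6 of the 37 (16.2%), against 8.27%, 6.68% and 6.03% in those regions. Col6a5 lies between Col6a4 and Col6a6 and was too dim to be tested. The nearest genes tested on either side did not pass: Col6a6 at 216 kb, Pik3r4 at 303 kb, and on the other side Glyctk at 163 kb and Wdr82 at 200.1 kb.

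The called genes lay farther out. Abhd14b, which encodes a hydrolase, fell by 1.99 ± 0.12 on the log2 scale (SE; adjusted p = 1.9e-09, limma) at 462 kb, its neighbour Abhd14a fell by 0.45 ± 0.08 at 449 kb, and Parp3, a DNA repair enzyme, fell by 1.05 ± 0.15 at 480 kb. Gm8210 fell by 0.42 ± 0.09 at 441 kb. The probe of Rpl29, also at 441 kb, differed by -0.14 and did not pass, and whether the 2 probes read the same transcript was not tested. Cpne4, a copine, was higher by 1.79 ± 0.28 (SE; adjusted p = 0.00019, limma) at 957 kb on the other side, and was above background on 4 control and 8 KO arrays, kept through the KO arrays alone. A probe named Vprbp was higher by 0.95 ± 0.13 at 883 kb, while the probe of Dcaf1, the current name of that gene, differed by -0.10 and did not pass.

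**Figure D5:**
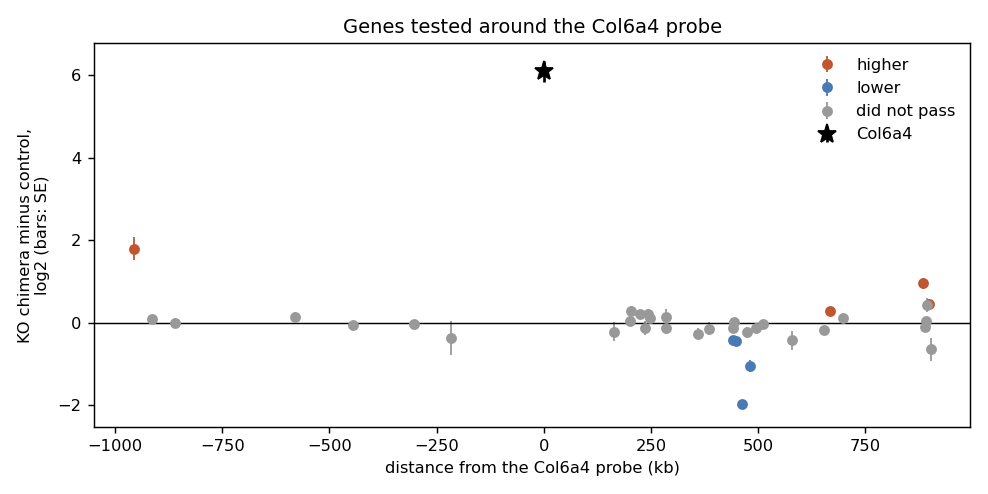
Difference between KO chimeras and controls (y axis, log2, bars SE) for genes tested within 1 Mb of the Col6a4 probe, by distance from it in kb (x axis). Col6a4 (star) stands at 6.10 between tested neighbours that did not pass, and the nearest gene called lies 441 kb away.

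The machinery that makes and handles collagen was read from lists of named genes. Each count below stands against 10.2% of all genes tested higher, 12% lower and a median of -0.02, and no list was tested against that background. Of the genes for collagen biosynthesis and secretion (hydroxylases, chaperones and export factors), 20 of 24 were tested, 4 rose, 2 fell and 14 did not pass, with a median of -0.02. Creb3l1, a transcription factor that drives collagen secretion in osteoblasts, fell by 0.73 ± 0.12 on the log2 scale (SE; adjusted p = 0.00018, limma). Tmem38b, an endoplasmic reticulum ion channel, rose by 0.59 ± 0.15 (SE; adjusted p = 0.00825, limma), and Plod1, a lysyl hydroxylase, by 0.61 ± 0.16 (SE; adjusted p = 0.0086, limma). Another kept probe of Plod1 differed by 0.24. P3h1, the other gene counted as lower, differed by -0.66 ± 0.19 (SE; adjusted p = 0.020, limma) on its brightest probe. Its other kept probe went the opposite way, at 1.40, so that call depends on the probe.

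Of the genes for procollagen processing and crosslinking 10 of 15 were tested, 3 rose, 1 fell and 6 did not pass (median 0.02, against -0.02 over all genes, of which 10.2% were higher and 12% lower). Pcolce, which enhances removal of the procollagen C-propeptide, rose by 0.92 ± 0.14 (SE; adjusted p = 0.00012, limma). The N-propeptidases Adamts14 and Adamts2 rose by 0.91 ± 0.13 and 0.80 ± 0.15 (SE; adjusted p = 5.5e-05 and 0.00097, limma) on their brightest probes, while another kept probe of each differed by 0.03 and -0.42. The gene counted as lower, Adamts3, differed by -1.21 ± 0.30 (SE; adjusted p = 0.0079, limma). It was above background on 6 control and 0 KO arrays, so it was kept through the control arrays alone. The crosslinking enzymes Lox and Loxl1 were too dim to be tested.

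Of the collagen receptors 8 of 11 were tested, 1 rose, 4 fell and 3 did not pass, with a median of -0.58 (all genes: 10.2% higher, 12% lower, median -0.02). Gp6, the collagen receptor of platelets, fell by 1.28 ± 0.20 on the log2 scale (SE; adjusted p = 0.00018, limma). Adgrg1, an adhesion receptor that binds collagen III, fell by 0.89 ± 0.11 (SE; adjusted p = 2.4e-05, limma), and Ddr1, a receptor tyrosine kinase, by 1.12 ± 0.24 (SE; adjusted p = 0.0024, limma). Gp6 and Ddr1 were each above background on 8 control and 5 KO arrays, so both were kept through the control arrays alone. Megakaryocyte markers moved with the receptor group. All 10 were tested, 7 fell and 3 did not pass (median -0.93), led by Clec1b at -2.87 ± 0.22, Gp1ba at -1.30 ± 0.19 and Ppbp at -1.81 ± 0.26 (SE). On 2 other kept probes Clec1b differed by -2.87 and -0.76. The summed signal of the 10 markers ranged from 34.9 to 70.6 in controls and from 19.4 to 49.9 in KO chimeras. Its brightest member, Pf4, fell by 0.85 ± 0.19 (SE). Their part in the receptor values was not tested.

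Of the collagen-degrading proteases and their inhibitors 8 of 10 were tested, 3 fell, 0 rose and 5 did not pass (median -0.15), where 12% of all genes were lower and 10.2% higher. Ctsk, the collagenase of osteoclasts, fell by 1.44 ± 0.33 on the log2 scale (SE; adjusted p = 0.0042, limma), Mmp14, a membrane collagenase, by 1.06 ± 0.25 (SE; adjusted p = 0.0047, limma), and Timp3, a metalloprotease inhibitor bound to matrix, by 0.93 ± 0.19 (SE; adjusted p = 0.0020, limma). Of the collagen-associated matrix genes 13 of 22 were tested, 3 rose, 1 fell and 9 did not pass (median 0.26), against the same shares and a median of -0.02 over all genes. Bgn (biglycan) rose by 0.64 ± 0.21 (SE; adjusted p = 0.036, limma) and Vcan (versican) by 0.30 ± 0.10 (SE; adjusted p = 0.040, limma), while Nid1, a linker of basement membranes, fell by 1.21 ± 0.36 (SE; adjusted p = 0.022, limma). Another kept probe of Vcan differed by 1.18.

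Markers of the cells that could carry collagen RNA were read the same way, against 10.2% of all genes higher and 12% lower. Of the reticular stromal and fibroblast markers 7 of 12 were tested, 2 rose and 5 did not pass (median 0.33): Nt5e rose by 0.78 ± 0.14 (SE; adjusted p = 0.00057, limma) and Cxcl12, the chemokine of reticular cells, by 0.62 ± 0.21 (SE; adjusted p = 0.041, limma). The summed signal of all 12, tested or not, ranged from 12.7 to 20.6 in controls and from 18.01 to 24.0 in KO chimeras. Pdgfra, Foxc1 and Prrx1 were above background on no array. The sum weighs its brightest marker most, and that marker, Lepr, differed by 0.23 ± 0.12 (SE; adjusted p = 0.18, limma) and did not pass. Of 10 endothelial markers tested 2 rose and 2 fell (median 0.05). Stab2, a scavenger receptor of sinusoids, was higher by 4.99 ± 0.22 (SE), with 2 other kept probes at 3.28 and 6.37. Tie1 was higher by 1.39 ± 0.17 and Cdh5 (VE-cadherin) lower by 0.91 ± 0.21 (SE). Both markers that fell, Cdh5 (above background on 8 control and 5 KO arrays) and Flt4 (6 and 0), were kept through the control arrays alone. The summed signal of the 12 endothelial markers ranged from 22.8 to 32.9 in controls and from 29.9 to 43.2 in KO chimeras, which overlap. The upward shift lay in Stab2: without it the sums ranged from 22.4 to 32.5 and from 22.6 to 34.8. Kdr, the brightest of the rest, differed by 0.07 ± 0.11 (SE) and did not pass. Emcn was above background on no array.

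Cartilage and muscle gave little. Of 3 chondrocyte markers tested, Chad fell by 0.39 ± 0.09 on the log2 scale (SE; adjusted p = 0.0037, limma) and 2 did not pass. Sox9 and Cnmd were above background on no array, and the summed signal of the 8 chondrocyte markers ranged from 0.44 to 0.61 in controls and from 0.42 to 0.67 in KO chimeras. None of the 5 muscle markers tested passed, with Acta1 at 0.24 ± 0.16 and Actn3 at -0.34 ± 0.29 (SE; adjusted p = 0.31 and 0.45, limma). The sums over all 9 muscle markers, tested or not, ranged from 0.81 to 1.00 in controls and from 0.81 to 1.22 in KO chimeras. The part of any of these cell types in the collagen differences was not tested.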

How the data were processed

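The deposited scanner files hold background-subtracted intensity per spot from Agilent Feature Extraction (version 10.1.1.1 and build mm9 per the file headers, 10.7 per the submitters' processing notes). The deposited log2 table holds the authors' values, quantile normalized per the labels, and served as an alternative (lowest correlation with scanner values 0.991). Control and outlier spots were left out, spots of a probe averaged, and each array's 75th percentile subtracted on the log2 scale. Of 55681 probes, 32693 were kept (well above background on at least 6 of 8 arrays of either group). Each gene's brightest kept probe was tested with limma 3.58.1 in R 4.3.3, and 32689 probes with at least 3 values per group singly. In data simulated with independent normal noise, 44 of 50 changes of 1 log2 unit and 22 of 50 of 0.5 were recovered among 22344 genes, with 7 false calls. A far smaller share of genes was changed there than the 22.3% called here, so these rates need not hold for the real comparison. Permutation tests used scipy 1.17.1. Names were updated through RefSeq's table (GRCm38.p6), which matched 28026 probes. The genes named were the collagen VI long chains, 10 main chains, other collagens past the threshold, up to 3 genes of each list by smallest p (2 where none passed) and up to 6 called neighbours. Other members, neighbours that did not pass, and marker values by mouse were chosen after their values were seen. Members and lists were chosen with earlier results of these data known. Alternatives covered normalization, filters, slide, scan day, pairing, probe choice, variance model, array weights and each mouse, and array brightness as a covariate was added after seeing the data. The number of arrays limits the precision.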

Additional observations from a re-analysis of the deposited data

Results flagged for a closer look

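Of 57 sets of 8 or fewer mice examined for a mouse standing apart (the gap to its nearest neighbour as a share of the range, at the 95% critical value), 4 collagen probes gave one, where chance gives about 1 in 20. Col6a1 read -0.72 in KO7, well above background, against -5.32 to -3.66 in the other KO chimeras. Col8a2 read -6.75 in C2, not well above background, against -5.05 to -3.55 in the other controls. Col14a1 read -4.22 in C4, not well above background, against -3.74 to -3.37. The second Col20a1 probe read -2.90 in C4 against -2.57 to -2.44 in the other controls, on the side away from the KO chimeras. The 57 sets did not take in every collagen probe, so these 4 are not the only mice standing apart. Col4a5 read -2.84 in C8 against -5.78 to -5.01 in the other controls. A dim probe of Col9a1 read -2.44 in KO6 against -6.87 to -5.59 in the other KO chimeras. The causes were not tested.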

How the results depend on the processing

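The 34 alternatives left Col6a4 and Col20a1 higher and past the threshold in each: Col6a4 between 2.02 (normexp background correction, adjusted p = 1.2e-08, limma) and 6.35, and Col20a1 between 0.99 (normexp) and 1.94. Col6a4 was kept through the KO arrays alone and its control values are background, so these refits add no separate support and give it no exact size. Col5a3 ranged from -1.69 to -0.79 (normexp). Col7a1 and Col5a3 lost the call only within the first scan day, with 4 mice a group. There, 2 collagen genes were higher and 0 lower of 19 tested, the median over collagen genes was -0.11, and 703 of all genes were higher and 913 lower. Within the second day 1223 were higher and 1099 lower. Fewer mice entered those fits. Leaving out each mouse in turn gave 3 to 5 collagen genes higher and 1 lower, 2045 to 2530 of all genes higher and 2356 to 2950 lower, a Col6a4 difference between 5.98 and 6.24, and a median over collagen genes between -0.040 (without C8) and 0.16. Of the genes not called, Col1a1 changed sign within the first scan day (-0.31), with array weights (-0.021) and on leaving out 1 mouse (range -0.17 to 0.21, without C8, C2 or KO6 below 0), and Col1a2 likewise (-0.26, -0.087 and -0.12 to 0.26). Col5a1 changed sign within the second day (0.13), with array weights (0.052), with brightness as a covariate (0.013) and without KO2 (range -0.27 to 0.023). Col6a2 did so within the second day (0.079), with array weights (0.073) and on leaving out 1 mouse (-0.12 to 0.015), and Col6a6 within the second day (0.29) and after normexp (0.0011). Col4a6 changed sign with outlier spots kept (0.59). None of these passed in any of these settings. Replicate numbers did not pair the mice (same-number correlations from -0.20 to 0.20, and no control matched its own number best). With the replicate block 5 collagen genes were higher (Col11a2 added) and 1 lower, and Col6a4 differed by 6.10 (adjusted p = 1.8e-07, limma), against 2178 of all genes higher and 2558 lower. Signal over background limits what 24 dim collagen genes can show.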
